A study of Mus musculus with 31 samples.

Results

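A set of 9 genes of the heart's thin filament and of the titin and Z-disc scaffold that holds it, Tnnt2, Tnni1, Tnni3, Tnnc1, Tpm1, Actc1, Actn2, Ttn and Nebl, was followed in mouse induced pluripotent stem cells (iPSCs) and in the embryoid bodies grown from them. They are 9 of the 18194 genes measured. Membership was set by gene symbol, and the members were chosen with earlier results of these data known. For each gene the probe set annotated to that symbol alone with the highest mean over all 31 arrays was used, and all 9 genes had such a probe set. The question set for them was how much contractile heart muscle each embryoid body sample had formed.

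RNA was measured on 31 Affymetrix arrays, 1 per sample, in 4 groups: Nos3-/- iPSCs at day 0 (n = 6), control iPSCs at day 0 (n = 10), Nos3-/- embryoid bodies at day 11 (n = 6) and control embryoid bodies at day 11 (n = 9). The Nos3-/- cells came from strain B6.129P2-Nos3tm1unc/J, which lacks endothelial nitric oxide synthase, and the control cells from wild type CD1 mice. Cells of both genotypes were made from tail-tip fibroblasts of adult males with Sendai virus, were kept on inactive mouse embryonic fibroblast feeders while pluripotent, and then formed aggregates in AggreWell plates that differentiated spontaneously, with no cardiac inducer named in the labels. Genotype and strain therefore cannot be told apart in any comparison between Nos3-/- and control. Whether the arrays within a group are separate cultures, cell lines or animals is not in the labels, so the p-values measure the spread between arrays, which may be technical. An embryoid body holds many cell types, so fewer heart muscle cells and less RNA per heart muscle cell cannot be told apart.

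In heart muscle, actin filaments slide past myosin filaments when calcium binds troponin C, which shifts the troponin complex and tropomyosin along actin. Titin spans from the Z-disc to the middle of the sarcomere and sets passive stiffness, and alpha-actinin ties actin and titin together at the Z-disc. Mouse embryoid bodies form patches of beating cells, and troponin T and alpha-actinin are commonly stained to find them. In the early heart slow skeletal troponin I (Tnni1) is the main troponin I, and the cardiac form (Tnni3) replaces it around and after birth.

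The promoters of 4 members are shown because the 9 genes did not move alike. Tnnt2, Ttn and Actc1 had the largest differences between day 11 and day 0 among the members in Nos3-/- cells, whereas the difference of Tpm1 did not pass the test in either genotype. The sequences are from the RefSeq annotation of GRCm38.p6 and run from 250 bases before to 50 bases from the annotated start, 5′ to 3′ on the gene's strand. They lie at chr2:114052826-114053125 on the minus strand for Actc1, chr2:76982498-76982797 on the minus strand for Ttn, chr1:135836084-135836383 on the plus strand for the first of 2 annotated Tnnt2 starts, and chr9:67049164-67049463 on the minus strand for Tpm1. Capitals mark matches, on either strand, to the serum response factor motif (CArG box), the MEF2 motif, TATAAA, the GATA motif AGATAA and CATTCC, the M-CAT motif of TEAD factors, wherever these letters occur in the windows shown.
Actc1: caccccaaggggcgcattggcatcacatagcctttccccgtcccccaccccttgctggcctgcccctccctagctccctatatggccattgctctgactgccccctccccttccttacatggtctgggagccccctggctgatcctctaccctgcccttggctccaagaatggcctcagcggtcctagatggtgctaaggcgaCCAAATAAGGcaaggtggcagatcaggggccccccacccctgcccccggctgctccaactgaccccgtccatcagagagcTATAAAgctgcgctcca
Ttn: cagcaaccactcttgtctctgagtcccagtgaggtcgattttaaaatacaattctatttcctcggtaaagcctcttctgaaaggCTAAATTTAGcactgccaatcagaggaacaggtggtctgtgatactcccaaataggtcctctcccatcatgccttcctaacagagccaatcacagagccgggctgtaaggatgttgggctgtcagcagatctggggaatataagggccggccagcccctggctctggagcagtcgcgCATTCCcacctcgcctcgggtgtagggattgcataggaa
Tnnt2: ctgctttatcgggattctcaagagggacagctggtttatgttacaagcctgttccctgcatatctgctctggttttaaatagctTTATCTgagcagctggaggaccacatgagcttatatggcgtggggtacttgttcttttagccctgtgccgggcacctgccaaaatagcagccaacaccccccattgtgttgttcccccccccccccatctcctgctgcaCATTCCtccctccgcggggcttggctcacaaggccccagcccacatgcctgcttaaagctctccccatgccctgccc
Tpm1: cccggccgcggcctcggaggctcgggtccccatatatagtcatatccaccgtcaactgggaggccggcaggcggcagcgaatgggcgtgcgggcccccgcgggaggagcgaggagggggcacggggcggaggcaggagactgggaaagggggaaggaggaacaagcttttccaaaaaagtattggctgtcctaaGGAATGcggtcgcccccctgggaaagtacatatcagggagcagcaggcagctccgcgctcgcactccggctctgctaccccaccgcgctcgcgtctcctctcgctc

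Counted from the annotated start as base 1, the Actc1 sequence held a CArG box at -47 to -38 and TATAAA at 34 to 39. The Ttn sequence held a MEF2 motif at -166 to -157 and CATTCC at 12 to 17. The Tnnt2 sequence held AGATAA on the opposite strand at -166 to -161 and CATTCC at -27 to -22, and the Tpm1 sequence held CATTCC on the opposite strand at -56 to -51. Among 14 promoters of the 9 members, a CArG box was found in 2 (Actc1 and Nebl), the MEF2 motif in 1, TATAAA in 1, AGATAA in 3 promoters of 2 members, and CATTCC in 5 promoters of 5 members. Of 32851 promoters of 27025 genes of the same length, 1.63% held the CArG box, 3.19% the MEF2 motif, 13.6% TATAAA, 11.2% AGATAA and 14.7% CATTCC. A match is a description of the sequence, and binding was not measured here.

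The deposited levels are log2 intensities summarised by RMA, so a difference of 1 is a 2-fold difference of the normalized signal. They ran from 2.32 to 15.01 over all probe sets, and the array medians lay between 6.13 and 6.23. Levels of different probe sets are not set against each other, and no detection call was used here, so a low level is not called absent. Every test is limma over all 18194 genes, a gene passes at a Benjamini-Hochberg adjusted p under 0.05, ± is the SD between arrays, and SE is that of the fit. Nos3 itself differed by -0.17 between Nos3-/- and control at day 11 (adjusted p = 0.386 in limma) and by 0.33 at day 0 (adjusted p = 0.0295 in limma). Where its probe set lies relative to the deleted part is not known here, so it checks nothing about the allele. Replicate 3 of each Nos3-/- group stood apart, with mean correlations to its own group of 0.961 at day 11 and 0.971 at day 0, the lowest of the 31 arrays. Values without replicate 3 of 1 or both Nos3-/- groups are given beside the results that they move.

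Between day 0 and day 11, the cardiac troponin T, actin and titin genes rose steeply in both genotypes. In Nos3-/- cells 7 of the 9 members were higher at day 11 than at day 0, beside 13.0% of all genes called higher. In control cells 7 of 9 were higher, beside 16.0% of all genes. The median difference of the members was 1.87 in Nos3-/- and 2.07 in control, where that of all genes was -0.06 and -0.03. No member was called lower, beside 18.1% of all genes in Nos3-/- and 18.2% in control. The groups did not overlap for 3 members in Nos3-/- (3.25% of all genes were higher and 4.58% lower without overlap) and for 5 in control (2.89% higher and 3.63% lower).

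**Figure D1:**
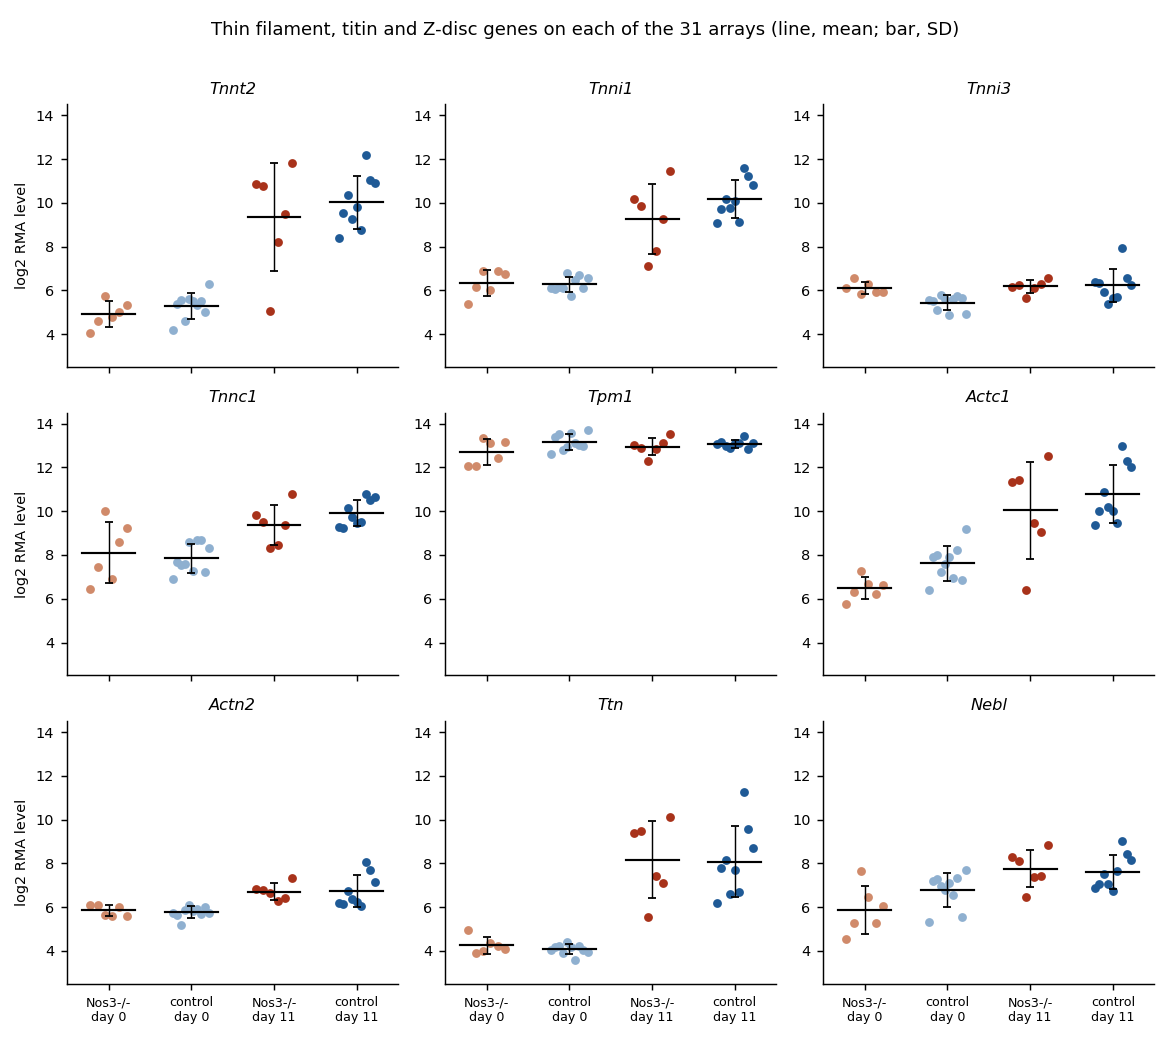
Log2 RMA level of each of the 9 genes (y axis) on each array, in Nos3-/- and control at day 0 and at day 11 (x axis; n = 6, 10, 6 and 9). Points are arrays, lines group means and bars SDs. Tnnt2 averaged 9.36 in Nos3-/- and 10.03 in control embryoid bodies, while Tpm1 lay between 12.06 and 13.73 in every group.

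Tnnt2 (chr1:135836315-135852268) encodes cardiac troponin T, which anchors the troponin complex to tropomyosin. Its levels in Nos3-/- embryoid bodies on replicates 1 to 6 were 10.86, 10.77, 5.05, 8.20, 9.48 and 11.82, against 4.05 to 5.75 with a median of 4.90 in Nos3-/- iPSCs. Every Nos3-/- day 11 array except replicate 3 lay above all Nos3-/- day 0 arrays, and replicate 3 lay among them. The difference was 4.44 ± 0.72 (SE), or 21.7-fold (adjusted p = 4.7e-05 in limma), the highest of all 18194 genes in that comparison. It was 5.30 (39.5-fold) without day 11 replicate 3 and 5.47 (44.3-fold; adjusted p = 1.36e-07 in limma) without replicate 3 of either Nos3-/- group. In control embryoid bodies the levels ran from 8.40 through a median of 9.82 to 12.18, against 4.17 to 6.30 with a median of 5.45 in control iPSCs. The control groups were separate, and the difference was 4.73 ± 0.58 (SE), or 26.6-fold (adjusted p = 2.0e-07 in limma). The array has 3 probe sets for Tnnt2. Another of them differed by 3.98 in Nos3-/- and 4.42 in control, and the last by 0.15 and 0.08. The size and rank of the Tnnt2 difference therefore depend on the probe set used.

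Tnni1 (chr1:135783033-135810989), the slow skeletal and early cardiac troponin I, lies on the same chromosome as Tnnt2. It reached 10.19, 9.87, 7.10, 7.80, 9.27 and 11.44 on Nos3-/- day 11 replicates 1 to 6, against 5.40 to 6.89 with a median of 6.45 at day 0. Even the lowest Nos3-/- embryoid body array was above every Nos3-/- iPSC array. The difference was 2.93 ± 0.49 (SE; adjusted p = 7.1e-05 in limma). In control it reached 9.10 to 11.59 with a median of 10.10, against 5.74 to 6.79 with a median of 6.14 at day 0. Again the 2 days did not overlap, and the difference was 3.90 ± 0.39 (SE; adjusted p = 6.1e-09 in limma).

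Tnnc1 (chr14:31208312-31211729) encodes the calcium sensor of cardiac and slow skeletal troponin. Its Nos3-/- day 11 levels were 9.82, 9.53, 8.31, 8.44, 9.37 and 10.77, against 6.43, 7.43, 9.99, 6.91, 8.61 and 9.25 at day 0. The days overlapped, and iPSC replicate 3 was above 5 of the 6 embryoid body arrays. The difference of 1.27 ± 0.49 (SE) had an adjusted p of 0.046 in limma, and 11 of the 31 fits that left out 1 array lost it (adjusted p up to 0.134 without Nos3-/- day 0 replicate 1). It was also lost where the Nos3-/- arrays were fitted alone (adjusted p = 0.155 in limma). Without replicate 3 of both Nos3-/- groups the Tnnc1 difference was 1.86 (3.63-fold) and passed with an adjusted p of 0.00298 in limma. In control, Tnnc1 stood at 9.22 to 10.77 with a median of 9.75 at day 11, against 6.90 to 8.70 with a median of 7.63 at day 0. These control groups did not overlap, with a difference of 2.07 ± 0.39 (SE; adjusted p = 0.000107 in limma).

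Tnni3 (chr7:4518305-4522718), the troponin I of the mature heart, moved least of the troponins. It ranged from 5.67 to 6.59 with a median of 6.20 in Nos3-/- embryoid bodies, against 5.82 to 6.59 with a median of 6.02 in Nos3-/- iPSCs. The 2 ranges all but coincided, and the difference was 0.07 ± 0.27 (SE; adjusted p = 0.862 in limma). In control embryoid bodies it ranged from 5.40 through 6.26 to 7.92, against 4.89 to 5.81 with a median of 5.59 in control iPSCs. The control groups overlapped at their edges, and the difference was 0.79 ± 0.21 (SE; adjusted p = 0.00442 in limma). Its top value of 7.92 was on control replicate 7, and the next array was at 6.59.

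Tpm1 (chr9:67022590-67049672) encodes alpha-tropomyosin, the coiled coil that lies along actin, and is also made in fibroblasts and smooth muscle. It ranged from 12.30 to 13.51 with a median of 12.96 in Nos3-/- embryoid bodies, against 12.06 to 13.34 with a median of 12.78 in Nos3-/- iPSCs. Control embryoid bodies had 12.84 to 13.45 with a median of 13.12, against 12.61 to 13.73 with a median of 13.08 in control iPSCs. All 4 groups overlapped. Neither difference passed, at 0.24 ± 0.21 in Nos3-/- (SE; adjusted p = 0.407 in limma) and -0.09 ± 0.17 in control (SE; adjusted p = 0.723 in limma). Its other 3 probe sets differed between day 11 and day 0 by 0.73, 0.58 and 0.08 in Nos3-/- and by 0.26, -0.21 and -0.19 in control, in the same order of probe sets. Their mean levels over all arrays were 5.48, 9.17 and 12.6.

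Actc1 (chr2:114047282-114052875) encodes cardiac alpha-actin, the track of the thin filament. In Nos3-/- embryoid bodies its levels were 11.32, 11.42, 6.39, 9.48, 9.06 and 12.54, against 5.77 to 7.26 with a median of 6.46 in Nos3-/- iPSCs. Replicate 3 again lay within the day 0 range and the other 5 arrays above it. The difference was 3.56 ± 0.71 (SE; 11.8-fold; adjusted p = 0.000435 in limma). It reached 4.29 (19.5-fold) without that array and 4.45 (21.8-fold; adjusted p = 8.1e-06 in limma) without replicate 3 at day 0 as well. Control embryoid bodies had 9.36 to 12.96 with a median of 10.18, against 6.41 to 9.17 with a median of 7.74 in control iPSCs. The control days did not overlap, and the difference was 3.18 ± 0.57 (SE; 9.06-fold; adjusted p = 5.8e-05 in limma).

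Ttn (chr2:76703980-76982557) encodes titin, the giant elastic filament. Its levels on Nos3-/- day 11 replicates were 9.40, 9.48, 5.56, 7.41, 7.08 and 10.12, against 3.91 to 4.96 with a median of 4.17 at day 0. All 6 embryoid body arrays were above the iPSC arrays, and the difference was 3.92 ± 0.65 (SE; 15.1-fold; adjusted p = 5.5e-05 in limma). Control embryoid bodies spread from 6.19 through a median of 7.78 to 11.27, against 3.59 to 4.41 with a median of 4.10 in control iPSCs. The difference was 4.00 ± 0.52 (SE; 16.0-fold; adjusted p = 4.9e-07 in limma) with no overlap. The array has 6 probe sets for Ttn, and their mean day 11 differences from day 0 ran from 0.10 to 3.92 in Nos3-/- and from -0.01 to 4.00 in control, so the size depends on the probe set used.

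Actn2 (chr13:12269426-12340732), sarcomeric alpha-actinin of the Z-disc, moved less. It stood at 6.28 to 7.33 with a median of 6.71 in Nos3-/- embryoid bodies, against 5.61 to 6.11 with a median of 5.82 in Nos3-/- iPSCs. The Nos3-/- days did not overlap, with a difference of 0.86 ± 0.26 (SE; adjusted p = 0.0128 in limma). In control it stood at 6.06 to 8.08 with a median of 6.38, against 5.18 to 6.10 with a median of 5.79. Control embryoid body replicate 6, at 6.06, lay under the highest iPSC array, and the difference was 0.97 ± 0.21 (SE; adjusted p = 0.000532 in limma).

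Nebl (chr2:17342673-17734949) encodes nebulette, a Z-disc protein that binds actin. It reached 6.48 to 8.86 with a median of 7.76 in Nos3-/- embryoid bodies, against 4.55 to 7.66 with a median of 5.68 in Nos3-/- iPSCs. The difference was 1.87 ± 0.47 (SE; adjusted p = 0.00347 in limma), although iPSC replicate 3 at 7.66 lay above 3 of the embryoid body arrays. With replicate 3 of both Nos3-/- groups left out, the Nebl difference was 2.48 (5.59-fold; adjusted p = 0.000126 in limma). In control it reached 6.75 to 9.02 with a median of 7.53, against 5.32 to 7.71 with a median of 7.04, and these groups overlapped widely. The control difference of 0.82 ± 0.38 (SE) did not pass (adjusted p = 0.0907 in limma). Without the Nos3-/- arrays that stand apart, which enter the shared estimate of spread, the same 0.82 passed (adjusted p = 0.0477 in limma) and 8 of the 9 members were then called higher in control. It also passed with the mean of the gene's 3 probe sets, at 0.90 (adjusted p = 0.000635 in limma), and a second Nebl probe set was 1.84 higher at day 11 in control and 1.32 higher in Nos3-/-.

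The test of the difference between these changes, the day 11 minus day 0 change in Nos3-/- minus that in control, called 0 of the 9 members, beside 1.24% of all genes. At an unadjusted p under 0.05 it picked 1 member, beside 17.0% of all genes: Tnni3, whose change was 0.72 smaller in Nos3-/- (a difference of -0.72 ± 0.34, SE; adjusted p = 0.278 in limma). For Nebl the difference was 1.05 ± 0.60 (SE; adjusted p = 0.381 in limma) and for Tnni1 -0.97 ± 0.63 (SE; adjusted p = 0.453 in limma). For Tnnt2 it was -0.29 with a 95% interval from -2.18 to 1.60, so at this spread a change several times larger or smaller in Nos3-/- was not excluded. Ttn had -0.08 with an interval from -1.78 to 1.61, and Actc1 0.38 with an interval from -1.48 to 2.24. When replicate 3 of both Nos3-/- groups was left out, these differences were 1.66 for Nebl (adjusted p = 0.0642 in limma), 1.27 for Actc1, 0.74 for Tnnt2 and 0.39 for Ttn, and still 0 members passed.

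At day 11 no member passed the test of a difference between the genotypes. The fit called 0 of 9, beside 9.70% of all genes (4.41% higher and 5.29% lower), and 0 members had an unadjusted p under 0.05, beside 21.5% of all genes. The median difference of the members, Nos3-/- minus control, was -0.14, and that of all genes 0.00. The groups overlapped for all 9 members, where 1.16% of all genes were higher and 1.44% lower in Nos3-/- without overlap.

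**Figure D2:**
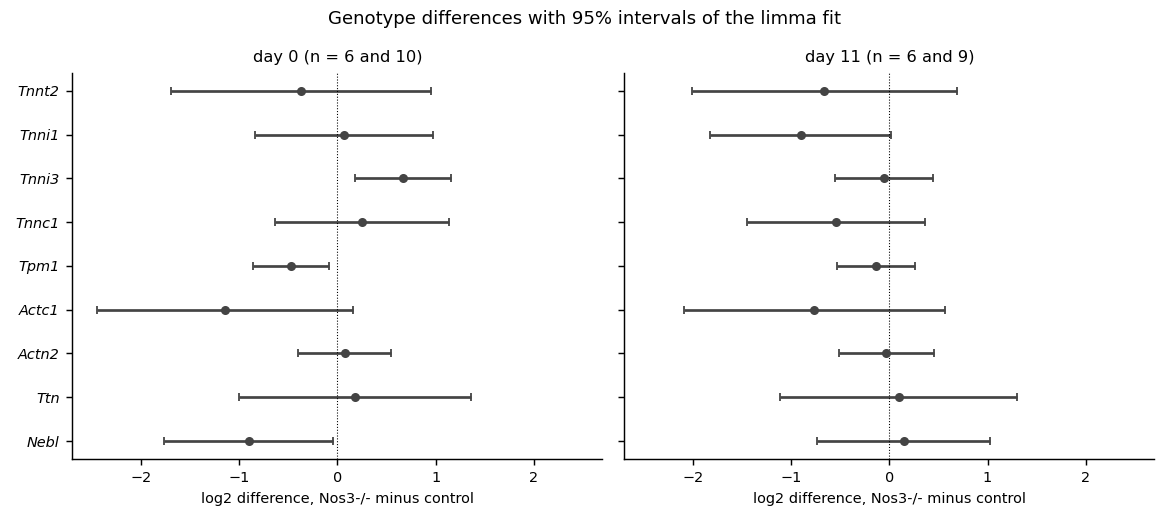
Log2 difference, Nos3-/- minus control (x axis), of each of the 9 genes (y axis) at day 0 (left, n = 6 and 10) and at day 11 (right, n = 6 and 9). Points are the differences and bars the 95% intervals of the limma fit; at day 11 all 9 intervals include 0, with Tnni1 at -0.90 the lowest.

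Tnni1 had the lowest difference at day 11. It averaged 9.28 ± 1.60 in Nos3-/- and 10.18 ± 0.88 in control embryoid bodies (SD, n = 6 and 9), a difference of -0.90 ± 0.45 (SE; adjusted p = 0.245 in limma) with a 95% interval from -1.82 to 0.02. Replicates 3 and 4 of Nos3-/-, at 7.10 and 7.80, lay below all 9 control arrays, and replicate 6 at 11.44 above 8 of them. Without Nos3-/- replicate 6 the difference was -1.33 and passed (adjusted p = 0.0426 in limma). Without Nos3-/- replicate 3 it was -0.47, the end nearest 0 over single omissions. It did not pass without replicate 3 of both Nos3-/- groups (adjusted p = 0.549 in limma).

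Actc1 averaged 10.04 ± 2.21 in Nos3-/- and 10.80 ± 1.32 in control (SD, n = 6 and 9), a difference of -0.77 (adjusted p = 0.565 in limma) with an interval from -2.09 to 0.56. Without Nos3-/- replicate 3 the Actc1 mean was 10.76 ± 1.45 in Nos3-/- (SD, n = 5) and the difference -0.036, the end nearest 0 of a range from -1.27 over single omissions. Tnnt2 averaged 9.36 ± 2.46 in Nos3-/- and 10.03 ± 1.21 in control (SD, n = 6 and 9), a difference of -0.66 (adjusted p = 0.641 in limma) with an interval from -2.02 to 0.69. Its SD in Nos3-/- came largely from replicate 3: without that array the Nos3-/- mean was 10.23 ± 1.41 (SD, n = 5) and the difference 0.20, with the sign turned. Tnnc1 averaged 9.37 ± 0.91 in Nos3-/- and 9.92 ± 0.61 in control (SD, n = 6 and 9), a difference of -0.55 (adjusted p = 0.54 in limma). Without Nos3-/- replicate 3 the Tnnc1 difference was -0.33. For these 4 genes the interval still holds differences of at least 1 downward. A lower level of that size in Nos3-/- was therefore not excluded at this spread between arrays.

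Ttn differed by 0.10 (interval from -1.11 to 1.30; adjusted p = 0.957 in limma) and Nebl by 0.15 (interval from -0.73 to 1.03; adjusted p = 0.903 in limma). Leaving out Nos3-/- replicate 3 moved these to 0.62 for Ttn and 0.40 for Nebl. The 2 Nebl probe sets of higher level disagreed in sign, with -0.66 for the second. Actn2 differed by -0.03 (interval from -0.52 to 0.46), Tnni3 by -0.06 (interval from -0.56 to 0.44) and Tpm1 by -0.14 (interval from -0.54 to 0.26). The intervals of Actn2, Tnni3 and Tpm1 are the narrow ones, and they hold no difference as large as 1 in either direction. These genes also differed by less than 1 between day 0 and day 11. Actn2 differed by 0.86 in Nos3-/- and 0.97 in control, Tnni3 by 0.07 and 0.79, and Tpm1 by 0.24 and -0.09. Their narrow intervals therefore cannot show that the genotypes formed equal amounts of heart muscle.

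For each of the 9 members, the range from lowest to highest array within either genotype at day 11 was wider than the difference between the genotype means. Nos3-/- replicate 6 had the highest level of its group for all 9 members and control replicate 7 the highest of its group for all 9. Nos3-/- replicate 3 had the lowest level of its group for 8 of 9. Averaged over the 9 members, the level above the mean of day 0 arrays of the same genotype was 2.80, 2.72, 0.32, 1.48, 1.87 and 3.59 on Nos3-/- replicates 1 to 6. On control replicates 1 to 9 it was 1.39, 1.85, 2.28, 1.67, 1.84, 1.53, 3.88, 3.11 and 2.84. Control replicates 8 and 9 were each among the top 3 of their group for 8 members, and Nos3-/- replicates 1 and 2 likewise.

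**Figure D3:**
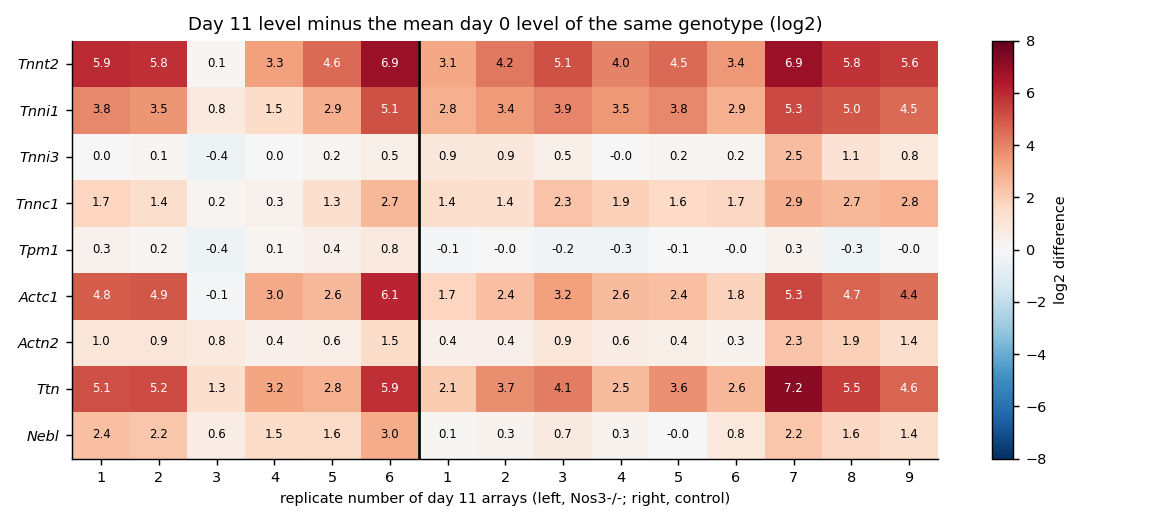
Level on each day 11 array minus the mean day 0 level of the same genotype (log2, colour and printed value) for the 9 genes (rows) on the 6 Nos3-/- arrays (left) and the 9 control arrays (right). Nos3-/- replicate 3 is pale in nearly every row, and Nos3-/- replicate 6 and control replicate 7 are the darkest columns.

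Some heart muscle genes outside the 9 varied with them from array to array. The mean level of 8 cardiomyocyte markers (Myh6, Myh7, Myl2, Myl4, Myl7, Nppa, Ryr2 and Pln) was 8.20, 8.27, 5.18, 6.69, 6.92 and 9.14 on Nos3-/- day 11 replicates 1 to 6, against 7.02 to 10.19 with a median of 7.50 in control embryoid bodies. Nos3-/- replicate 3, at 5.18, was under the lowest Nos3-/- iPSC array, which had 5.38. Of the 8 markers on that array, 3 were below every Nos3-/- iPSC array: Myh6, the alpha-myosin heavy chain, at 4.08, Myl2, the ventricular myosin light chain, at 4.61, and Myl4, the atrial essential light chain, at 5.65. Myl7 (7.01), Myh7 (6.17), Ryr2 (4.48) and Nppa (4.05) lay within the Nos3-/- iPSC range, and Pln, the calcium pump inhibitor phospholamban, at 5.38 lay above it. The array also had the lowest mean of 6 visceral endoderm markers in its group, 5.40 where the median was 7.26, and of 6 endothelial markers, 5.28 where the median was 6.22. Its mean of 6 pluripotency markers was the lowest as well, 9.19 where the group's median was 10.85. Zfp42 (4.06), Esrrb (5.87) and Dppa5a (10.33) were the lowest of the group there, while Fbxo15 (10.99), Nanog (11.64) and Pou5f1 (12.22) were not. Its mean of 6 neural markers was the highest, at 8.53 where the group's median was 7.78. Stmn2 (12.86), Nes (9.43), Map2 (8.93) and Sox1 (6.67) were the highest of the group there. Tubb3 (6.95) was the lowest, and Pax6 (6.33) was neither. Whether these bear on its low thin filament levels was not tested.

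Across the 15 day 11 arrays, with the mean of each genotype removed, the 36 pairs of members had a median Pearson r of 0.77 (0.29 to 0.96). Leaving out Tnni3 and Tpm1, the 21 remaining pairs had a median of 0.90 (0.63 to 0.96), and without Nos3-/- replicate 3 it was 0.91 (0.80 to 0.97). Tnnt2 and Actc1 were the closest pair at 0.96, and Tpm1 and Actn2 the most distant at 0.29. The values of a pair come from the same hybridization, so they share whatever an array's RNA held.

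The same measure, taken with the mean of the 9 members after each was centred and scaled, picked 8 genes outside the lists as most alike. They were Ccdc141 (r = 0.97), Sh3bgr (0.96), Rcsd1 (0.96), Rassf5 (0.95), Asb2 (0.93), Sorbs2 (0.92), Ppp1r3d (0.92) and Ptges3l (0.92), over 15 arrays. Ccdc141 (chr2:77009902-77173769) lies 27.3 kb from Ttn with 0 annotated coding genes between them. It averaged 6.02 in Nos3-/- and 6.87 in control embryoid bodies, and 6.23 in Nos3-/- and 6.00 in control iPSCs. Its Nos3-/- mean was therefore not higher at day 11 than at day 0. Rassf5 went from a mean of 7.16 at day 0 to 6.14 at day 11 in Nos3-/- and from 6.89 to 6.28 in control. Ptges3l went from 8.34 to 7.83 and from 8.55 to 8.39. The means of Sh3bgr, Rcsd1, Asb2, Sorbs2 and Ppp1r3d were higher at day 11 in both genotypes. Among listed heart genes Myl7 (0.98), Myh7 (0.97), Myom1 (0.97), Myl4 (0.96) and Myh6 (0.95), all of the thick filament and its M-band, came closest. Other listed heart genes did not vary with the members, among them Ckm (-0.46), Atp2a2 (-0.36), Nppb (-0.19) and Hand1 (0.06). Of the 8 genes outside the lists, Ppp1r3d and Ptges3l were lower in Nos3-/- than in control at day 11, each by -0.56 (adjusted p = 0.0433 and 0.0286 in limma).

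At day 0 no member passed either, 0 of 9 beside 16.6% of all genes (9.17% higher and 7.47% lower), and 3 had an unadjusted p under 0.05, beside 30.5% of all genes. Tnni3 ranged from 5.82 to 6.59 with a median of 6.02 in Nos3-/- iPSCs, against 4.89 to 5.81 with a median of 5.59 in control iPSCs. All 6 Nos3-/- arrays were above all 10 control arrays, and 1.17% of all genes were higher and 0.753% lower in this way. The difference was 0.66 ± 0.24 (SE; 1.58-fold; adjusted p = 0.0549 in limma). It passed in 6 of the other settings, with adjusted p from 0.0127 where only the day 0 arrays were fitted to 0.0431, and after leaving out any of 5 single arrays, so it lies at the threshold.

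Tpm1 was at 12.06 to 13.34 with a median of 12.78 in Nos3-/- iPSCs, against 12.61 to 13.73 with a median of 13.08 in control iPSCs. The groups overlapped, and the difference was -0.47 ± 0.19 (SE; adjusted p = 0.0872 in limma). Nebl was at 4.55, 5.27, 7.66, 6.46, 5.28 and 6.07 in Nos3-/- iPSCs, against 5.32 to 7.71 with a median of 7.04 in control iPSCs, a difference of -0.90 ± 0.42 (SE; adjusted p = 0.143 in limma). Replicate 3 was the highest Nos3-/- iPSC array for Nebl, Tpm1, Tnnc1, Tnnt2 and Actc1, and had the lowest mean of pluripotency markers of its group, 9.25 where the median was 11.99. Without it Tpm1 differed by -0.60 (adjusted p = 0.0245 in limma) and Nebl by -1.26 (adjusted p = 0.0259 in limma). The Nebl difference depends on the probe set used. With all arrays the gene's other probe sets, of lower mean level, differed by -0.14 and -0.005 at day 0. Actc1 averaged 6.48 ± 0.50 in Nos3-/- and 7.62 ± 0.80 in control iPSCs (SD, n = 6 and 10), a difference of -1.15 (adjusted p = 0.227 in limma). It was -1.30 (adjusted p = 0.0843 in limma) without replicate 3 of both Nos3-/- groups, and passed where only the day 0 arrays were fitted (adjusted p = 0.0332 in limma).

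Some markers of fibroblasts and of smooth muscle also differed between the genotypes at day 0. Whether the day 0 samples held feeder cells was not measured. Beside the counts stand 9.17% of all genes called higher and 7.47% lower in Nos3-/- at day 0. The mean level of 8 fibroblast markers, of a kind that feeder cells express, was 9.68 in Nos3-/- and 10.36 in control iPSCs, with 2 of 8 passing, both lower (Col1a1 by -1.26, adjusted p = 0.0269, and Col1a2 by -0.82, adjusted p = 0.0248 in limma). Of 8 smooth muscle markers 3 passed, all lower, and their mean level was 8.77 in Nos3-/- and 9.43 in control iPSCs. Of 16 other thin filament isoforms of other muscle and the cytoskeleton, 3 passed at day 0, all lower. Among them were Actn1 (-0.57, adjusted p = 0.00664 in limma), the alpha-actinin of non-muscle cells, and Tpm3 (-0.21, adjusted p = 0.0273 in limma). The count of lower isoforms ran from 1 to 5 over single omissions. It was 6, with 1 isoform higher, without the arrays that stand apart. The part of feeder cells in the Tpm1, Nebl and Actc1 values was not tested.

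Partner genes of the sarcomere are described from lists chosen with earlier results known, by counts. Beside them stand 13.0% of all genes called higher and 18.1% lower over time in Nos3-/-, and 16.0% higher and 18.2% lower in control. Of 18 measured thick filament and M-band genes, 7 rose and 0 fell between day 0 and day 11 in Nos3-/-, and 11 rose and 1 fell in control, with median differences of 0.87 and 1.01. The count of risen thick filament and M-band genes in Nos3-/- ran from 3 without day 11 replicate 6 to 10 without day 11 replicate 3 over single omissions, and was 4 without day 11 replicate 1. Myh7, the beta-myosin heavy chain, was 2.99 higher in Nos3-/- (adjusted p = 0.00151 in limma) and 3.91 higher in control (adjusted p = 1.7e-06 in limma). Myl7, the atrial regulatory light chain, was 3.14 higher in Nos3-/- (adjusted p = 0.000937 in limma). Myl2 was 3.16 higher in control (adjusted p = 0.000602 in limma).

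More of the other thin filament isoforms fell than rose. Of 16, 0 rose and 4 fell over time in Nos3-/- (6 had an unadjusted p under 0.05 in limma, beside 41.8% of all genes). In control 2 rose, the fast skeletal troponins Tnnt3 and Tnni2, and 7 fell. Actg2, the gamma-actin of smooth muscle, fell by 2.68 in Nos3-/- (adjusted p = 0.00215 in limma) and fell by 2.15 in control (adjusted p = 0.00139 in limma). The cytoplasmic actins Actb and Actg1 did not pass in Nos3-/- (0.04 and -0.04). Of 27 measured genes of the thin filament ends and the Z-disc, 3 rose and 3 fell in Nos3-/- and 5 rose and 4 fell in control. Tmod1, which caps the pointed end of the thin filament, was 1.74 higher in control embryoid bodies than in control iPSCs (adjusted p = 2.9e-07 in limma). Of 11 skeletal muscle markers, 0 rose and 4 fell in Nos3-/- and 2 rose and 4 fell in control. Of those markers Myod1, a master regulator of skeletal muscle, had a mean of 5.07 in Nos3-/- and 5.14 in control embryoid bodies, and 5.18 in Nos3-/- and 5.16 in control iPSCs.

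**Figure D4:**
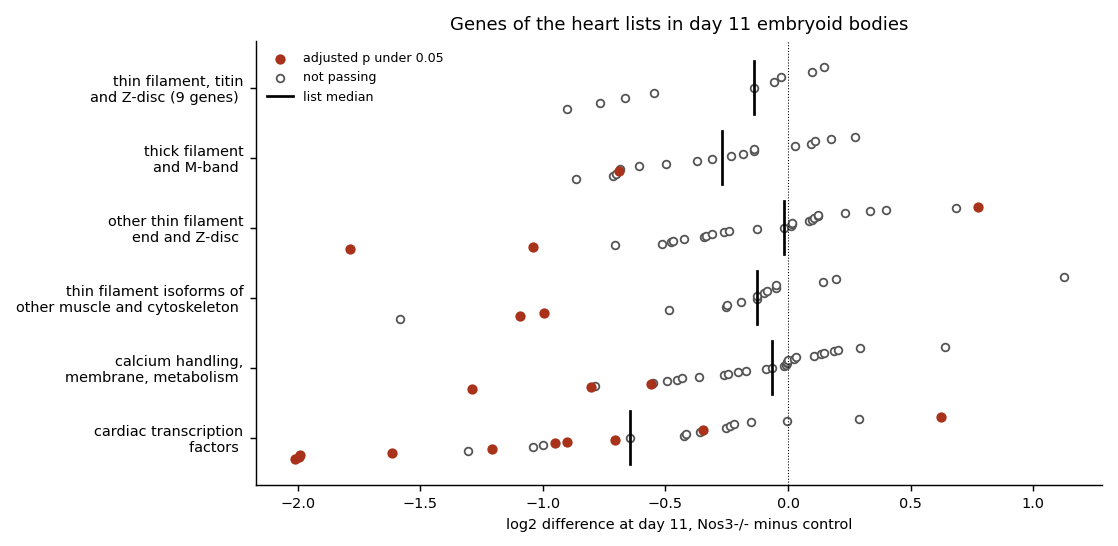
Log2 difference at day 11, Nos3-/- minus control (x axis), of each measured gene of 6 heart and muscle lists (y axis). Filled points passed at an adjusted p under 0.05 in limma, open points did not, and the bar is the list's median. None of the 9 genes is filled, and 10 of the 23 cardiac transcription factors are.

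Between genotypes at day 11, 4.41% of all genes were called higher and 5.29% lower in Nos3-/-. Lower calls made up 5.56% of the thick filament and M-band genes and 7.41% of those of the filament ends and Z-disc. They made up 12.5% of the other thin filament isoforms, 10.3% of the calcium handling, membrane and metabolism list and 39.1% of the cardiac transcription factors. Of 18 thick filament and M-band genes 1 was lower in Nos3-/-, Myh7b at -0.69 (adjusted p = 0.045 in limma), with a list median of -0.27. That count was 0 in 20 of the 31 fits that left out 1 array. Of 27 genes of the filament ends and Z-disc, Tmod2 was higher at 0.77 (adjusted p = 0.00162 in limma), and Tmod1 and Ankrd1, a stretch-responsive titin partner, were lower at -1.04 and -1.79 (adjusted p = 0.00563 and 0.0106 in limma), and without the arrays that stand apart 4 were lower. Of 16 other thin filament isoforms 2 were lower, fast skeletal Tnnt3 at -0.997 (adjusted p = 0.0029 in limma) and smooth muscle actin Acta2 at -1.09 (adjusted p = 0.0129 in limma). Of 29 genes of calcium handling, membrane and metabolism 3 were lower, among them Ryr2, the calcium release channel, at -1.29 (adjusted p = 0.0181 in limma), and Bves at -0.80 (adjusted p = 0.000455 in limma). That count was 1 without Nos3-/- day 11 replicate 3, 4 or 5, and up to 7 without control day 11 replicate 6.

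Of the 23 cardiac transcription factors, 9 were lower and 1 higher in Nos3-/- embryoid bodies, with a median of -0.64. Gata6 averaged 8.62 in Nos3-/- and 10.63 in control (difference -2.01, adjusted p = 0.00542 in limma), and Tbx20 averaged 7.76 in Nos3-/- and 9.75 in control (difference -1.99, adjusted p = 0.000997 in limma). Irx4, a ventricular factor, was higher, at 0.62 (adjusted p = 0.0341 in limma). The count of higher factors was 0 in 7 of the 31 fits that left out 1 array, where only the day 11 arrays were fitted, and after the filter on low levels. The count of lower factors was 4 where only the day 11 arrays were fitted, and also 4 without Nos3-/- replicate 4. After the filter, which leaves out genes below the median level, it was 3. Its size therefore depends on the fit and on the genes kept. In the same arrays 6 of 6 visceral endoderm markers and 6 of 8 fibroblast markers were lower in Nos3-/-, and 3 of 6 pluripotency markers higher. Among the markers that did not pass, Zfp42 and Thy1 went against their lists. The pluripotency marker Zfp42 averaged 7.70 in Nos3-/- and 9.05 in control, and the fibroblast marker Thy1 7.19 and 6.52. The mean level of the visceral endoderm markers ran from 5.40 to 7.74 in Nos3-/- and from 7.16 to 12.73 in control embryoid bodies. That of the fibroblast markers ran from 7.88 to 8.87 in Nos3-/- and from 9.25 to 11.07 in control, and that of the pluripotency markers from 9.19 to 11.94 in Nos3-/- and from 9.35 to 10.78 in control. The part of this makeup in the thin filament values was not tested.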

How the data were processed

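Values were log2 RMA intensities in the table the authors deposited, per the submitters' processing notes, which name RMA with no version; further filters or batch steps are not given in the sources used here. The log2 scale was checked on the values. Of 45101 probe sets, 34958 carried 1 symbol, 932 several and 9211 none in the platform table, and 9012 of the 18194 genes had more than 1 probe set. Each gene was represented by the probe set of 1 symbol with the highest mean. The 5 comparisons were fitted in limma 3.58.1 (R 4.3.3) as 4 group means over 31 arrays, with 27 residual and 2.80 prior degrees of freedom, and tested on simulated data first. No pair of arrays held identical values. Deviations of same-numbered arrays had correlations from -0.27 to 0.35, and both ends were between genotypes at day 0. Between days they ran from -0.02 to 0.29 in Nos3-/-, where 3 of 6 day 11 arrays were closest to their own number. In control they ran from -0.24 to 0.27, and 1 of 9 was. Replicate numbers were not treated as pairs, but a shared origin of same-numbered Nos3-/- arrays is not excluded. RMA compresses large differences, so folds are of normalized signal. The number of arrays limits the precision.

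The members and gene lists were chosen with earlier results of these data known. Named genes were all members, up to 2 passing genes at either end of each list and 2 that do not pass, the 8 genes outside the lists most like the members, and Nos3. Of 178 list entries 171 were measured. As alternatives, values were quantile normalized or centred on array medians, probe sets of a gene were averaged, those ending in _x_at and _s_at or genes under the median level were dropped, eBayes was run robust with a trend, arrays were weighted, groups were fitted alone, the replicate number served as block, and arrays were omitted singly. After seeing the data 2 were added: leaving out replicate 3 of both Nos3-/- groups, and the number as a random block within genotype.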

Additional observations from a re-analysis of the deposited data

Results flagged for a closer look

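In 36 groups of a member's values, the highest or lowest array stood apart by Dixon's test in 2, where chance gives about 1 in 20. Tnni3 was at 7.92 on control day 11 replicate 7, with the next array of the group at 6.59. That array was the highest of its group for all 9 members. Actn2 was at 5.18 on control day 0 replicate 3, with the next array at 5.66.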

How the results depend on the processing

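Over 42 other settings, Tnnt2, Tnni1, Actc1, Ttn, Actn2 and Nebl rose in Nos3-/- cells, and Tnnt2, Tnni1, Tnnc1, Actc1, Ttn, Actn2 and Tnni3 in control cells, in every setting that kept the gene. Leaving out genes with a mean below the median kept 4 members, so the count of risen members was 3 in each genotype.

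At day 11 the sign of a genotype difference turned for members that had not passed. It was -0.15 for Nebl with the mean of the probe sets, 0.062 for Tnnt2 with array weights, and 0.20 for Tnnt2 and 0.045 for Tnni3 without the arrays that stand apart. Leaving out single arrays gave -0.29 to 0.62 for Ttn, -1.16 to 0.20 for Tnnt2, -0.16 to 0.15 for Tnni3, -0.15 to 0.14 for Actn2 and -0.074 to 0.40 for Nebl. At day 0 Tnni1 became -0.050 and Tnnc1 -0.13 with array weights, and -0.037 and -0.13 without the arrays that stand apart, and single omissions gave -0.041 to 0.26 for Tnni1 and -0.13 to 0.59 for Tnnc1. The difference between genotypes over time became 0.53 for Tnnt2 and 0.24 for Ttn with array weights, and 0.74 and 0.39 without the arrays that stand apart. Single omissions gave -0.78 to 0.57 for Tnnt2, -0.47 to 0.44 for Ttn, -0.12 to 1.11 for Actc1 and -0.23 to 0.064 for Actn2, and -0.0087 to 0.18 for Tnni3 over time in Nos3-/-. The cause was not tested.

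The replicate number also served as a block over all 4 groups, a pairing that the labels do not give. With it the day 11 differences of Tnni3 and Actn2 became 0.16 and 0.22, and the day 0 difference of Tnnt2 0.10. At day 0 the block called 1 member higher and 846 genes lower, and over time it called 61 genes higher in the difference between genotypes.

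Members called lower at day 11 numbered 0 to 1 over single omissions. At day 0 those called higher numbered 0 to 1 and lower 0 to 2. At day 0, 1 was called higher with quantile normalization, with centring, with array weights, in the groups alone and without the arrays that stand apart. Lower were 1 with array weights, 1 in the groups alone and 2 without the arrays that stand apart.

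Of all genes at day 11, 802 were higher and 962 lower, against 471 higher after the filter on low levels and 1930 higher and 2009 lower with array weights. At day 0, 1360 were lower, against 2206 without the arrays that stand apart, and single omissions gave 892 to 2209 higher and 579 to 1933 lower. Over time in Nos3-/-, 3299 were lower, against 1909 after the filter and 2101 in the groups alone, and in control 3308 were lower against 1753 after the filter. In the difference between genotypes 95 were higher and 130 lower, against 729 and 861 with array weights, 625 and 690 without the arrays that stand apart, and 33 to 341 and 55 to 404 over single omissions.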
